A study of Mus musculus with 14 samples.

Results

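Genes of B cells and plasma cells were followed through bulk RNA-Seq of the mouse esophagus, 9 genes among the 55291 listed in the count files. They were picked by symbol. Ighm, Igha and Ighg2b encode the constant regions of the IgM, IgA and IgG2b heavy chains, and Igkc that of the kappa light chain. Jchain encodes the chain that joins IgM or IgA into polymers, and Mzb1 a chaperone of antibody assembly in the endoplasmic reticulum. Cd79a and Cd79b encode the signaling chains of the B cell receptor, and Ms4a1 encodes CD20. All 9 symbols were found, and each had a count in at least 4 of the 5 stromal samples.

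All samples came from wild type C57BL/6 mice, and the labels name no treatment. Epithelium peeled from the esophagus was sequenced in 5 aged mice (O1, O2, O3, OF5 and OM8, 18 months or more per the labels) and 4 young mice (Y1, Y3, YF5 and YM4, 4 months or less), and stroma, the labels' name for the other layer, in 5 of the 9 animals, the aged O1, O2 and O3 as well as the young Y1 and Y3. The labels give the sex as not available. No cells were sorted, so that fewer cells of a type and less RNA per cell cannot be told apart in a lower value.

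B cells carry membrane IgM or IgD with the Cd79a/Cd79b pair and express CD20. When they become plasma cells they lose CD20, reduce the receptor chains and secrete antibody, and for that they raise transcripts of the constant genes, Jchain and Mzb1 to a level far above that of a resting B cell. Every antibody is encoded by a variable segment joined to a constant gene, and cells of 1 clone share their segments. Junctions and clones cannot be read from gene counts, so the counts below show only which segments supplied the RNA and not how many clones did. IgA plasma cells are typical of the intestinal mucosa, whereas the esophagus, lined by a stratified squamous epithelium, holds few antibody-secreting cells.

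Total counts were 13257833 to 15644580 in the 5 stromal and 8217516 to 21867101 in the 9 epithelial samples. OF5, OM8, YF5 and YM4, whose codes are of another form, had the lowest protein-coding counts (1041386 to 1432509). All values below are normalized counts, that is CPM on a library size scaled by TMM over the 14 samples. On that scale 3 counts, taken as the floor of detection, were 0.115 to 0.175 in stroma and 0.0872 to 1.25 in epithelium. The labelled tissue was checked with markers: the sum of 5 keratin genes was 34.5 to 435 in stroma and 16650 to 53120 in epithelium, and that of 5 skeletal muscle genes was 30280 to 57540 in stroma and 8.96 to 1168 in epithelium.

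The variable segments that led the antibody RNA of the stroma are shown first, because they differed from mouse to mouse. Each sequence is the 3′ part of the coding sequence in the last exon, from the GENCODE M21 transcripts of GRCm38, and the capitals mark the codon of the conserved cysteine before the third complementarity-determining region. Igkv3-2 (chr6:70698768-70699067, plus strand) and Ighv7-3 (chr12:114153180-114153479, minus strand) led in O3. Ighv11-2 (chr12:114048241-114048540, minus strand) led the heavy chain segments in O1 and O2, and Igkv14-126 (chr6:67896345-67896642, plus strand) led the kappa segments in O2. As background, a heavy chain from Ighv11-2 with a light chain from Igkv14-126 is a pair known from B-1 cells, a self-renewing B cell type that makes natural IgM.
Igkv3-2: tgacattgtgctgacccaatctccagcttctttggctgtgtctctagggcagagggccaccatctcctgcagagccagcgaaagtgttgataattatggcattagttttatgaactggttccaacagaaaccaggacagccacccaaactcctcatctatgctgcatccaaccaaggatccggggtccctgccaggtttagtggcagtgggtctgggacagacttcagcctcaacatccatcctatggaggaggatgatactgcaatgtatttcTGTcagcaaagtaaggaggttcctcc
Ighv7-3: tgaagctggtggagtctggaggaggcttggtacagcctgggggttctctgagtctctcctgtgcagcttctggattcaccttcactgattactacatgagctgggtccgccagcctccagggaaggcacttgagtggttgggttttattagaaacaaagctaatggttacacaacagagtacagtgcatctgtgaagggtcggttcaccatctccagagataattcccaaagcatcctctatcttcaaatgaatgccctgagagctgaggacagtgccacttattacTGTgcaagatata
Ighv11-2: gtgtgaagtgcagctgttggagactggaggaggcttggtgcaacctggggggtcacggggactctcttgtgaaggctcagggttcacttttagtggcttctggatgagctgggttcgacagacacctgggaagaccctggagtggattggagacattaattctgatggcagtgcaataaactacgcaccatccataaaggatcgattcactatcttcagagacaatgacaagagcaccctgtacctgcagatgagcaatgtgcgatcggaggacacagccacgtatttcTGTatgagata
Igkv14-126: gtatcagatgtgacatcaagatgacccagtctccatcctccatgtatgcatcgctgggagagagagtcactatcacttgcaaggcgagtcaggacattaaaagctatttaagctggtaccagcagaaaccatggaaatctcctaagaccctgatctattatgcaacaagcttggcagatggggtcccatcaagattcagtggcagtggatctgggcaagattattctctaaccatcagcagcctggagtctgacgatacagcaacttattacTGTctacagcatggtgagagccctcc

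Stretches of these sequences recur in related segments. Of all windows of 50 bases, 50.2% of those in Ighv11-2 were also found in another gene, all of them in Ighv11-1, against 18.7% for Igkv3-2, 8.37% for Ighv7-3 and 0 of 249 for Igkv14-126. Ighv11-1 itself had 1 to 7 counts per stromal sample, Ighv7-2 had 0 to 10 and Igkv3-4 had 0 to 9. How reads that match several segments were counted is not given in the sources used here, so each segment's count is uncertain to that extent.

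The IgM heavy chain and the kappa chain carried most of the antibody signal in stroma, and the 9 genes were far apart between mice. Ighm had 21.8 normalized counts in O1, 60.0 in O2, 1178 in O3, 99.1 in Y1 and 138 in Y3. Igkc had 10.2 in O1, 44.3 in O2, 868 in O3, 76.6 in Y1 and 84.9 in Y3. Jchain had 2.04 in O1, 3.99 in O2, 85.0 in O3, 10.01 in Y1 and 15.8 in Y3. All 3 genes thus had the same order, O3 above Y3, Y1, O2 and O1, and O3 was 8.53 times the next sample for Ighm, 10.2 times for Igkc and 5.37 times for Jchain.

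Mzb1, the chaperone, followed at a lower level, with 0.117 in O1, 0.247 in O2, 1.76 in O3, 0.877 in Y1 and 0.827 in Y3. Ighg2b had 0 counts in O1 and 1.44, 22.7, 3.41 and 1.30 normalized counts in O2, O3, Y1 and Y3. Igha was the exception. It had 1.75 in O1, 0 counts in O2, 0.956 in O3, 2.99 in Y1 and 2.52 in Y3, so that the sample with the most IgM RNA had only 25 counts of the IgA gene.

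The B cell surface genes were also highest in O3 and lowest in O1. Cd79a had 0.292 in O1, 3.08 in O2, 15.2 in O3, 0.826 in Y1 and 3.98 in Y3. Cd79b had 0.175 in O1, 2.75 in O2, 8.45 in O3, 1.24 in Y1 and 1.81 in Y3. Ms4a1 had 0.992 in O1, 1.56 in O2, 5.85 in O3, 1.39 in Y1 and 3.47 in Y3. For these 3 genes O2 lay above Y1, whereas for Ighm, Igkc, Ighg2b, Jchain and Mzb1 it lay below Y1.

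O3 was the highest of the 5 stromal samples for 8 of the 9 genes, and 21.1% of the 29011 genes with at least 10 counts in 1 or more stromal samples also had their highest value there. O3 was at least 2 times the next sample for 7 of the 9 genes (all but Igha and Ms4a1), against 6.8% of these genes. O1 was the lowest for 8 of the 9 (all but Igha), against 19.1% of these genes. The 9 genes together took 0.365% of all counts in O3 (95% Wilson interval 0.362% to 0.368%), 0.00483% in O1 (0.00447% to 0.00522%), 0.0186% in O2, 0.0249% in Y1 and 0.0429% in Y3. These intervals cover counting error only, since reads without molecular identifiers are not independent molecules.

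**Figure D1:**
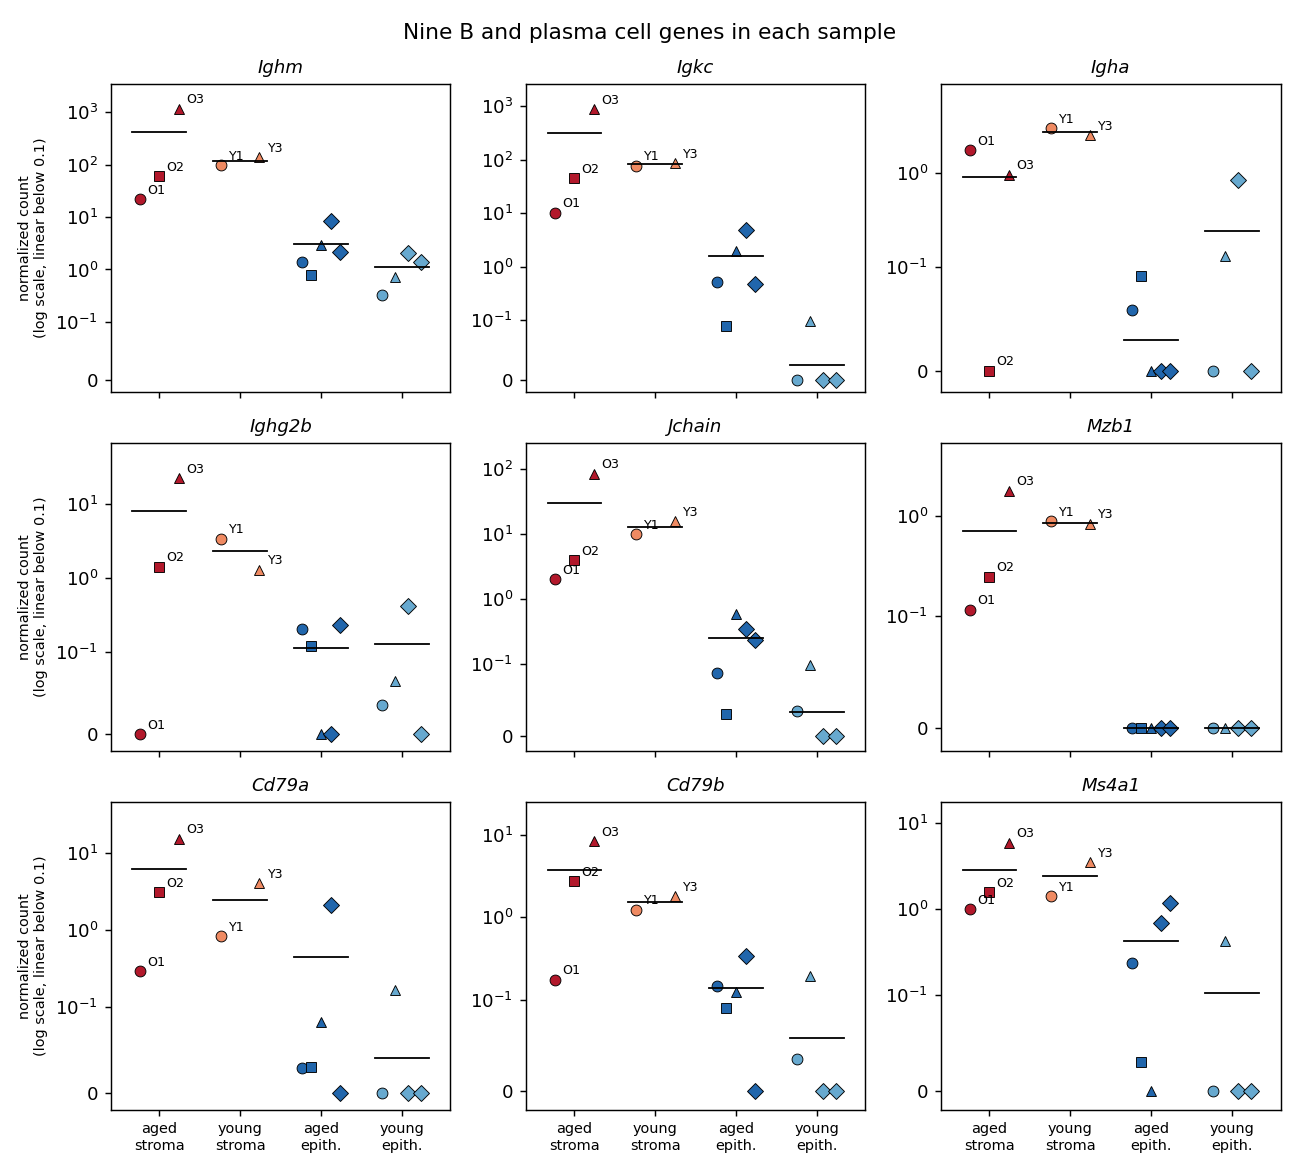
Normalized counts of the 9 genes (vertical axis, log scale that turns linear below 0.1) in the 4 groups of samples. Each symbol is 1 sample, stromal samples carry the mouse code and bars are group means; O3 is the highest stromal sample in all panels but that of Igha, and Mzb1 has 0 counts in the 9 epithelial samples.

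Genes that mark B cells and were no members gave the same picture of O3 with exceptions. Of 21 other B cell genes, 19 were highest in O3, and 12 of the 21 were at least 2 times the next sample there. Cd22, an inhibitory receptor of B cells, had 0 counts in O1 and 2.67, 18.1, 2.53 and 3.94 normalized counts in O2, O3, Y1 and Y3. Pax5, the transcription factor that maintains B cell identity, had 0 counts in O1 and 3.94, 8.15, 1.24 and 3.39 in O2, O3, Y1 and Y3. The exceptions were Cd72, highest in O2, and Cr2, highest in O1.

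Of the 10 other plasma cell genes, 6 were highest in O3, and 4 were there at least 2 times the next sample. These 4 were Tnfrsf17 (the receptor BCMA, 5.34 times), Derl3 (4.89 times), Prdm1 (3.53 times) and Tnfrsf13b (the receptor TACI, 2.88 times). Fkbp11 and Ccr10 had 0 counts in O3. Irf4, a transcription factor of plasma cell differentiation, had 2.68, 2.63, 10.1, 3.87 and 5.60 in O1, O2, O3, Y1 and Y3. Xbp1, which drives the secretory program in many cell types, had 20.2, 29.5, 49.3, 31.5 and 30.4 in the same order. Prdm1 had 1.69, 1.60, 5.97, 0.516 and 1.26.

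Of the 6 genes of the germinal center, where B cells mutate and switch their antibodies, and of pre-B cells that had 10 counts or more in a stromal sample, 2 were highest in O3. S1pr2, a receptor that holds B cells in the germinal center, had 3.09, 8.42, 20.9, 3.56 and 3.03 normalized counts in O1, O2, O3, Y1 and Y3. Bcl6, the transcription factor of germinal center B cells, had 32.6, 19.0, 39.5, 38.6 and 22.3, so that O3 and Y1 were nearly level. Vpreb1, a surrogate light chain of pre-B cells, had 0 counts in the 5 samples.

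Of the 7 ligand and transport genes, 4 were highest in O3. Cxcl13, the chemokine that draws B cells into follicles, had 10.2, 5.79, 23.3, 8.26 and 12.02 normalized counts in O1, O2, O3, Y1 and Y3. Tnfsf13b, the B cell survival factor BAFF, had 0.758, 1.93, 0.459, 0.619 and 1.02. Tnfsf13, the related plasma cell survival factor APRIL, had 0, 0.945, 3.06, 0.5676 and 0.355. Of these 3 ligands, Cxcl13 and Tnfsf13 were thus highest in O3 and Tnfsf13b was lowest there. Cxcl12, a chemokine that retains plasma cells in bone marrow, had 10.2, 11.7, 33.6, 11.7 and 15.2. Pigr, which carries polymeric IgA and IgM across epithelia, had 2.28, 1.77, 4.74, 2.89 and 2.88. Of the 5 lymph node and follicle genes with 10 counts or more, 2 were highest in O3, against 21.1% of all such genes. They were Cxcl13, already counted among the ligands, and Glycam1, with 0.880 (23 counts) in O3 against 0.722 in Y1. Ccl21a had 7.06, 9.29, 7.65, 2.43 and 4.29.

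Other blood-derived cells were read from their own lists in the same samples, and their part in the level of the antibody genes was not tested. The 6 genes shared by leukocytes were all highest in O3, with a summed level of 154 there against 14.8 in O1, 32.1 in O2, 30.1 in Y1 and 37.9 in Y3. Ptprc, which encodes CD45, was 4.49, 8.67, 32.5, 8.15 and 12.4 in O1, O2, O3, Y1 and Y3. The 10 T cell genes summed to 21.8 in O3 and 4.19 to 10.01 in the other 4 samples, and 6 of the 10 were highest in O3, with Cd8a at 0 counts there. The 8 macrophage genes summed to 144 in O3 and 79.8 to 126 in the others, with 6 of 8 highest in O3. The 5 red blood cell genes were all highest in O3, with a sum of 431 there and 188 to 270 in the others. Relative to the next sample, O3 was thus 8.65 times higher for the sum of the 9 genes, most of which is Ighm and Igkc. By class it was 9.13 times for the antibody constant genes, 5.21 times for Jchain and Mzb1 and 3.19 times for Cd79a, Cd79b and Ms4a1. It was 2.4 times for the 21 other B cell genes and 4.07 times for leukocyte genes. T cell genes were at 2.18 times, red blood cell genes at 1.60 times and macrophage genes at 1.15 times. The surface genes and the other B cell genes thus rose less in O3 than the leukocyte genes. O3 and Y3 were also the stromal samples with Xist, the transcript of the inactive X chromosome, at 94.2 and 154 against 0.0822 to 2.37 in the other 3. Ddx3y, a gene of the Y chromosome, had 0 counts in O3 and Y3 and 302, 517 and 268 counts in O1, O2 and Y1. Among the aged stromal samples only O3 had this female pattern, and the part of sex in the antibody genes was not tested.

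**Figure D2:**
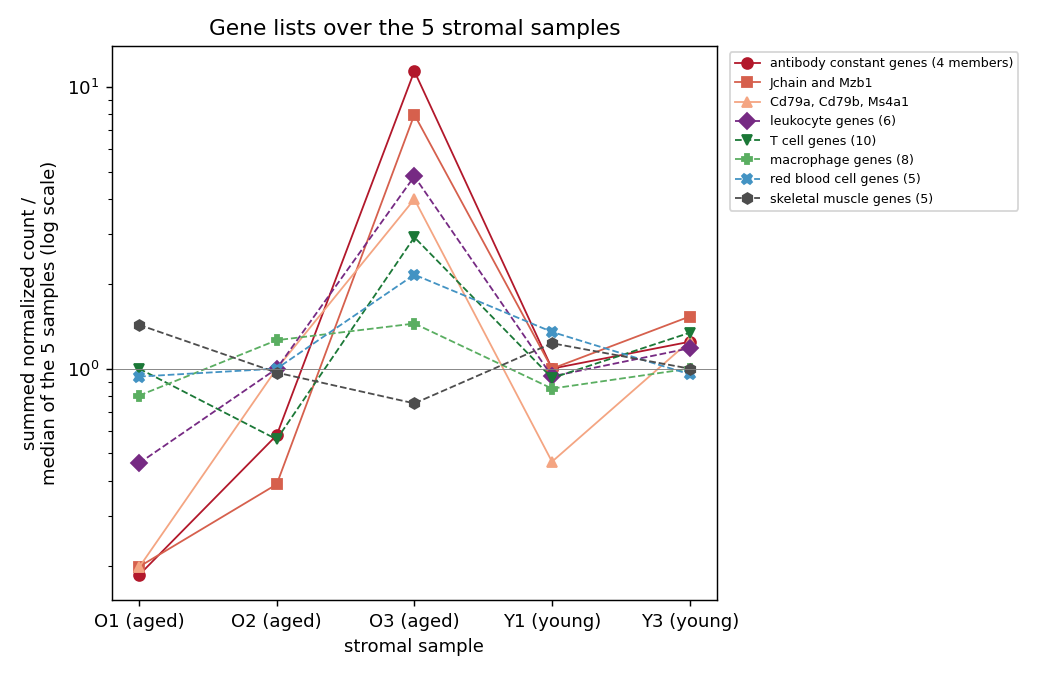
Summed normalized counts of gene lists in the 5 stromal samples, each divided by the median of its 5 sums (vertical axis, log scale); solid lines are the 9 genes in 3 classes, dashed lines other lists, and lines only join the points of a list. In O3 the antibody constant genes stand highest, leukocyte and T cell genes lower, and skeletal muscle genes have the lowest of their 5 sums (30280).

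Other genes were ranked by how near their pattern over the 5 stromal samples was to the mean pattern of the 9 genes. The distance was the root mean square difference of log2(normalized count + 0.5), centred on each gene's stromal mean. The mean pattern of the 9 was -1.67 in O1, -0.63 in O2, 2.12 in O3, -0.08 in Y1 and 0.27 in Y3. The nearest was Tnfrsf8, which encodes CD30, at a distance of 0.117, with 0, 0.452, 6.85, 0.774 and 1.46 normalized counts in O1, O2, O3, Y1 and Y3. Next came Dennd2d (0.174), B4galnt1 (0.180), Riox1 (0.181), Gm13833 (0.184), Bet1l (0.194), Pld4 (0.201), Arhgap15 (0.212), Lhx6 (0.220) and Ephb2 (0.223). The median distance of the 29002 genes ranked was 1.36. The 9 genes themselves were 0.536 (Jchain) to 0.817 (Igkc) from their mean, apart from Igha at 1.59. With 5 points a short distance says little of any single gene, and these 10 genes had 5.01 to 13.7 normalized counts in O3.

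Levels of different genes were compared per kilobase of annotated exon. In O3, Igkc had 1632 normalized counts per kilobase, Ighm 624, Jchain 33.8, Cd79a 10.4, Ighg2b 8.46, Cd79b 5.91, Mzb1 1.45, Ms4a1 0.946 and Igha 0.358. Igkc was also the highest of the 9 per kilobase in the other 4 samples, at 19.2 to 160, with Ighm second. The normalized count of Ighm was 19.5 times that of Cd79a in O2, 34.7 times in Y3, 74.6 times in O1, 77.4 times in O3 and 120 times in Y1. Ighm and Cd79a therefore did not keep a fixed ratio between mice, and for this pair the ratio of O3 lay within the range of the other 4. Relative to the next sample, O3 was 8.53 times higher for Ighm. It was 3.83 times higher for Cd79a, 3.07 times for Cd79b and 1.69 times for Ms4a1, so O3 stood out more for Ighm than for the surface genes. The ratios of O1 and Y1 rest on 5 and 16 counts of Cd79a.

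IgM was the main isotype in each stromal sample. Of the 8 heavy chain constant genes, per kilobase, Ighm made up 74.9% in O1 (500 counts over the 8 genes), 92.7% in O2 (1562), 95.5% in O3 (32309), 83.5% in Y1 (2277) and 89.9% in Y3 (3985). The 4 IgG genes together made up 18.2% in O1, 6.45% in O2, 4.14% in O3, 14.6% in Y1 and 7.97% in Y3. Igha made up 4.26% in O1, 0 of 1562 counts in O2, 0.0548% in O3, 1.78% in Y1 and 1.16% in Y3. Per kilobase, the leading IgG gene was Ighg2c in O1, O2, O3 and Y1 (11.7%, 4.88%, 2.10% and 10.9% of the heavy chain genes) and Ighg3 in Y3 (5.76%). By counts Ighg2b led in O3, with 592 against 475 for Ighg2c, and Ighg3 in O1, with 43 against 41. Lambda chains made up 7.44% of the light chain constant genes per kilobase in O1, 12.7% in O2, 2.89% in O3, 3.17% in Y1 and 3.79% in Y3. The constant genes of 1 chain resemble each other, and reads shared between them may have been divided or dropped.

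**Figure D3:**
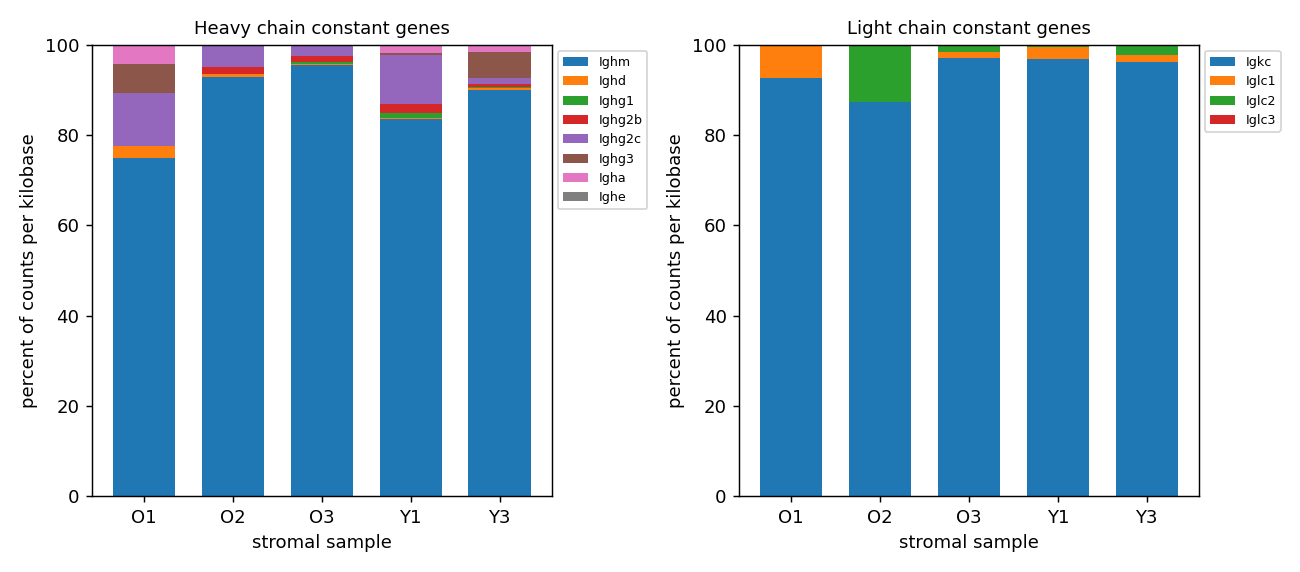
Share of each constant gene (vertical axis, percent of counts per kilobase of exon) among heavy chain genes (left) and light chain genes (right) in the 5 stromal samples. Ighm fills 74.9% to 95.5% of the heavy chain bars, and Igkc at least 87.3% of the light chain bars.

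The 346 annotated variable segments rose and fell with the constant genes only as a sum, and were unevenly used. Their summed counts were 764 in O1, 1497 in O2, 15326 in O3, 1594 in Y1 and 2896 in Y3, which is 44.6, 61.5, 586, 82.3 and 114 normalized counts. The order of the 5 samples was that of Ighm, but segment counts were 0.275 times those of the constant genes in O3 and 1.11 times in O1. Of the 125 segments with 10 counts or more in a stromal sample, 57 were highest in O3, against 21.1% of all such genes. In O3 a single kappa segment, Igkv3-2, had 6723 counts, 69.9% of the counts of kappa segments (95% Wilson interval 69.0% to 70.9%). Ighv7-3 had 2437 counts in O3, 43.8% of the heavy chain segments (42.5% to 45.1%). In the other 4 samples, Igkv3-2 had 1, 76, 59 and 3 counts in O1, O2, Y1 and Y3, at most 8.41% of kappa counts, and Ighv7-3 had 10, 35, 2 and 12.

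Those were not the only segments of O3. With both left out, O3 still had 236 normalized counts of variable segments against 43.9 to 114 in the other samples. With both included, 98 segments had a count in O3. Ighv1-53 followed with 694 counts. Igkv4-91 had 495 counts and was also second among the kappa segments of O2, with 134. The effective number of segments (the inverse of the sum of squared shares) was 4.45 in O3, 15.1 in O1, 14.1 in O2, 28.5 in Y1 and 15.0 in Y3.

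Ighv11-2 was the leading heavy chain segment in O1 and O2 and a lesser one elsewhere. It had 141 counts in O1, 38.0% of the heavy chain segments (33.2% to 43.0%). In O2 it had 240 counts, or 45.5% (41.3% to 49.8%). In O3 it had 487 counts, 8.75% (8.04% to 9.52%), and in Y1 and Y3 22 and 79 counts, 3.49% and 6.92%. The 3 aged samples thus had higher shares than the 2 young ones. This segment was singled out because it led, so that the order is a description, and 3 against 2 samples could not give a two-sided exact p below 0.2. Its partner in the background above, Igkv14-126, was the first kappa segment of O2, with 222 counts or 24.6% (21.9% to 27.5%), and made up 6.43%, 3.29%, 6.89% and 6.86% in O1, O3, Y1 and Y3.

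In the young mice other segments led. Y1 had Igkv5-39 (166 counts, 17.6% of kappa), Igkv1-110 (97) and Ighv6-3 (108, 17.1% of heavy chain segments). Y3 had Igkv12-89 (586, 34.7% of kappa), Igkv8-16 (290) and Ighv1-11 (216, 18.9%). Igkv12-89 was also first among the kappa segments of O1, with 76 counts, and had 0 of 9613 kappa counts in O3. O1 thus shared its first heavy chain segment with O2 and its first kappa segment with Y3, and no pair of samples shared both.

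**Figure D4:**
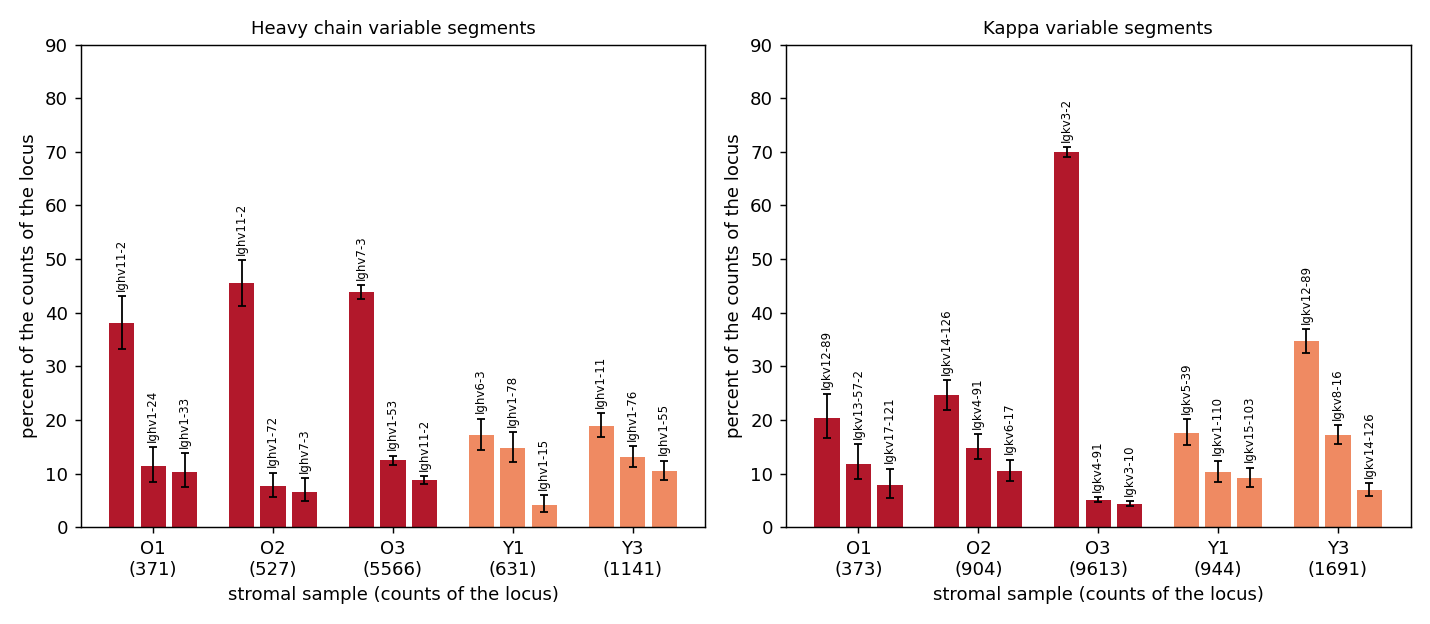
The 3 leading heavy chain (left) and kappa (right) variable segments of each stromal sample, as percent of the counts of that locus (vertical axis), with 95% Wilson intervals; dark bars are aged and light bars young mice, and the counts of the locus stand under each mouse. Igkv3-2 holds 69.9% of the kappa counts in O3, and Ighv11-2 leads in O1 and O2.

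Between the layers, the antibody genes were far lower in epithelium. Ighm had 299 ± 493 normalized counts in stroma (SD, n = 5) and 2.22 ± 2.41 in epithelium (SD, n = 9), and was lower in epithelium with a Log2FC of -7.38 (standard error 1.02, adjusted p = 3.57e-05 by Benjamini-Hochberg in the quasi-likelihood test of edgeR). Igkc had 217 ± 365 in stroma and 0.888 ± 1.61 in epithelium, a Log2FC of -8.37 (standard error 1.29, adjusted p = 0.000101 in the same edgeR fit). Jchain had 23.4 ± 34.9 and 0.157 ± 0.196, a Log2FC of -7.20 (standard error 0.97, edgeR adjusted p = 1.7e-05). Ms4a1 had 2.65 ± 2.03 and 0.284 ± 0.414, a Log2FC of -3.54 (standard error 0.86, edgeR adjusted p = 0.00159).

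These 4 were the genes of the 9 that passed the filter on low counts, which in this comparison a gene could pass through the stroma alone, and 30.1% of the 16791 genes tested were called lower in epithelium. Without the filter all 9 were tested and called lower in epithelium, and without mouse O1, whose stroma was the lowest, 7 were tested and called. Over all genes and in either direction, 14026 of 49574 were called without the filter and 9113 of 16994 without O1. Ighm, Igkc, Jchain and Mzb1 did not overlap between the layers, that is each of the 5 stromal samples lay above each of the 9 epithelial samples; 10.2% of genes with 10 counts or more in a stromal sample did so. Mzb1 had 0 counts in all 9 epithelial samples and at least 2 in each stromal sample. For Mzb1 the floor of detection limits this order. The 2 counts in O1 stroma lie under the floor of 3. In OF5, OM8, YF5 and YM4 0 counts allow up to 0.707 to 1.25 normalized counts, above the 0.117 in O1 and 0.247 in O2 stroma. For Cd79a, 3 of the 5 stromal samples lay above the highest epithelial sample, and for the other 4 genes 4 of 5 did.

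The other lists moved with the layers in different ways. Of the 21 other B cell genes 13 were tested, and 11 were lower in epithelium, among them Cd22 (Log2FC -4.40, standard error 1.014, edgeR adjusted p = 0.00144) and Pax5 (-3.47). Blnk (1.73) and Ralgps2 (2.01) were higher in epithelium. Of the 10 other plasma cell genes 6 were tested, and 3 were higher in epithelium: Sdc1 (5.22), Prdm1 (4.49) and Xbp1 (0.62), which are also known from squamous keratinocytes or other secretory cells. Over all 16791 genes tested, 26.1% were called higher in epithelium. Irf4 was lower (-2.57). Of the leukocyte genes 4 of 6 were lower in epithelium, including Ptprc (-2.02, standard error 0.44, edgeR adjusted p = 0.000724).

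In epithelium the 9 genes together took 4 to 138 counts per sample. Within the 5 mice with both layers, Ighm in epithelium was 6.28% of its stromal level in O1, 1.31% in O2, 0.250% in O3, 0.322% in Y1 and 0.521% in Y3. Jchain was 4.27%, 0.760%, 0.682%, 0.354% and 0.620% in the same mice. Acta1, a skeletal muscle actin that marks stromal tissue left on the sheet, was 0.428%, 0.311%, 3.06%, 0.460% and 1.52%. Ptprc was 79.6%, 21.0%, 7.65%, 18.7% and 23.5%. These shares move with the stromal level they are divided by. O3 had the lowest share of Ighm, with 2.94 normalized counts in epithelium against 1178 in stroma, and O1 the highest, with 1.37 against 21.8.

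**Figure D5:**
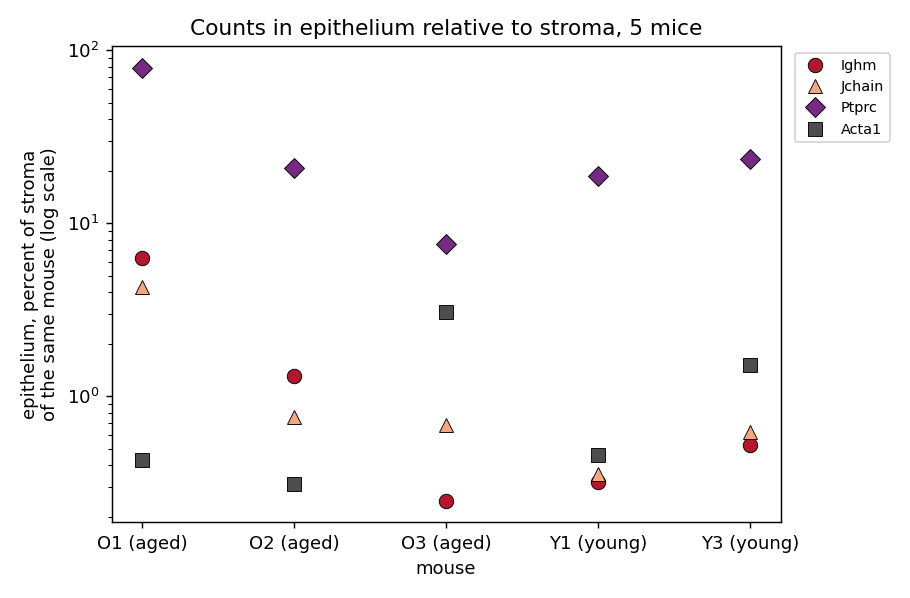
Normalized count in epithelium as a percent of that in stroma of the same mouse (vertical axis, log scale) for Ighm, Jchain, Ptprc and Acta1 in the 5 mice with both layers. Ptprc lies highest in each mouse (7.65% to 79.6%), and Ighm runs from 0.250% in O3 to 6.28% in O1.

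Variable segments were counted in epithelium as well, 162 counts in O1 and 197 in Y3 against 1 to 59 in the other 7 samples. They were spread over 103 segments in O1 and 114 in Y3, with under 10 counts for each, and were 1.57 and 3.72 times the counts of the constant genes, a ratio that was 0.275 to 1.11 in stroma. These epithelial samples also had the most genes with a count among the 9 (38332 and 39907, against 16695 to 31264), and Y3 stroma, with a count for 209 segments, had the most of the 5 stromal samples (41308). The part of this breadth in the segment counts was not tested.

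Age did not separate the stromal samples. The mean of Ighm was 420 ± 657 in aged (SD, n = 3) and 119 ± 27.6 in young stroma (SD, n = 2), with the aged samples on both sides of the young ones, and the Log2FC was 1.83 (standard error 2.02, edgeR adjusted p = 1). The Log2FC was 1.93 for Igkc, 1.78 for Ighg2b, 1.23 for Jchain, 1.37 for Cd79a, 1.32 for Cd79b, 0.21 for Ms4a1, -0.26 for Mzb1 and -1.63 for Igha, each with an edgeR adjusted p of 1. None of the 9 genes was called, and 0% of the 21323 genes tested were (0 genes, with 776 at an unadjusted p under 0.05 and none of the 9 among them; DESeq2 called 2 genes, none of the 9). The median Log2FC was 1.32 over the 9 genes and -0.01 over all genes tested.

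The aged mean rested on O3. Without this mouse, the aged mean was 0.345 of the young mean for Ighm instead of 3.54 times it, 0.337 instead of 3.81 for Igkc, 0.233 instead of 2.35 for Jchain and 0.702 instead of 2.58 for Cd79a, and the Log2FC turned to -1.56 for Ighm, -1.59 for Igkc and -2.12 for Jchain (edgeR adjusted p = 0.846 for each). Igha was the single gene of the 9 without overlap between the ages, with 0 to 1.75 in aged and 2.52 and 2.99 in young stroma; 22.7% of genes with 10 counts or more in a stromal sample did not overlap either.

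In epithelium no gene of the 9 passed the test of age, and the values of the 2 genes tested follow. Ighm had 1.37, 0.788, 2.94, 8.27 and 2.12 normalized counts in O1, O2, O3, OF5 and OM8, and 0.319, 0.720, 2.08 and 1.38 in Y1, Y3, YF5 and YM4. Igkc had 18, 3, 48, 14 and 2 counts in the 5 aged samples, and 0, 3, 0 and 0 in Y1, Y3, YF5 and YM4. The ages overlapped for both genes, and 0 counts in YF5 and YM4 allow up to 1.25 and 1.04 normalized counts. Fitted with code form as a covariate, the Log2FC was 1.61 for Ighm (standard error 0.50, unadjusted p = 0.00486 and adjusted p = 1 in edgeR) and 4.25 for Igkc (standard error 1.24, unadjusted p = 0.00457, edgeR adjusted p = 1).

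Within the mice of 1 code form, Ighm was higher in each aged than in each young epithelium: 0.788 to 2.94 against 0.319 and 0.720 in O1, O2, O3, Y1 and Y3, and 8.27 and 2.12 against 2.08 and 1.38 in the other 4, where these values rest on 24, 9, 5 and 4 counts. Igkc did not keep this order, with 0.0909 normalized counts in the aged O2 against 0.0981 in the young Y3. The share of all genes with such an order is not given here, so the order of Ighm is a description. In the 5 mice with both layers the fit gave 1.66 for Ighm (edgeR adjusted p = 1). These 2 genes were the only ones of the 9 that passed the filter in this comparison, and 0.0126% of the 15859 genes tested were called (2 genes, none of the 9; DESeq2 called 28 genes and none of the 9, and gave no adjusted p for Igkc). Without the filter Igkc was called (Log2FC 4.30, edgeR adjusted p = 0.000982), a fold that rests on 3 counts in young mice.

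Whether age acted differently in the layers was tested by the interaction term in O1, O2, O3, Y1 and Y3. None of the 9 genes was called, with 0% of the 22771 genes tested (0 genes in edgeR, 979 at an unadjusted p under 0.05 and none of the 9 among them; DESeq2 called 62 genes and none of the 9).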

How the data were processed

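Bulk mRNA of 9 mice was sequenced in 14 samples, 5 mice with both layers. The authors aligned reads to GRCm38.p6 with Rsubread and deposited featureCounts counts per gene, as whole numbers without normalization. Strand and multi-mapping settings are not given in the sources used here. GENCODE M21 matched 53186 of 55291 symbols by a unique name and gave exon lengths and sequences. The members and gene lists were chosen with earlier results of these data known.

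Counts were fitted over all genes with edgeR 4.0.16 in R 4.3.3 (TMM, filterByExpr minimum count 10, robust glmQLFit) and adjusted by Benjamini-Hochberg at 0.05; standard errors are the Log2FC divided by the square root of F. Alternatives were DESeq2 1.42.0, other size factors, other filters, the 10 genes with most counts left out, covariates, blocks by mouse or number, and each mouse left out. Scripts were tested on simulated counts. Same-group samples differed beyond sampling noise (chi-square per degree of freedom at least 9.93). Samples with 1 code come from 1 mouse, so the layers are paired; deviations of paired samples from their group means correlated by 0.04 to 0.11. Labels do not say whether numbers shared across ages mean anything. P-values measure the spread between these samples, and those of the main fit by layer do not use the pairing.

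Genes were named by rule: the 9 members, up to 4 genes per list by mean stromal level, Cxcl13, Tnfsf13b, Pigr, Pax5, Irf4, Xbp1 and Xist, the leading 3 segments per sample and the 10 nearest genes; some genes of the rule are not reported here. Cd72, Cr2, Blnk, Ralgps2, Vpreb1, Cd8a, Tnfrsf17, Derl3, Tnfrsf13b, Fkbp11, Ccr10 and the segments printed beside their relatives were named after their values were seen. Summed levels of the other lists in stroma ran from 151 to 843 for adipocyte genes and from 415 to 1031 for fibroblast genes.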

Additional observations from a re-analysis of the deposited data

Results flagged for a closer look

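Members were searched for a single sample that stood apart within the aged (n = 5) or young (n = 4) epithelium, on the log2(normalized count + 0.5) scale, in 16 groups with any spread. Chance alone marks about 1 in 20 groups of continuous values, and 4 were marked here, each resting on few counts. For 3 of them the other mice had 0 counts, so that any count would have been marked and that rate does not apply. In young epithelium, Y3 stood above the other 3 mice, which had 0 counts, for Igkc (3 counts, a log2 value of -0.74), Cd79a (5 counts, -0.59) and Ms4a1 (13 counts, -0.11). In aged epithelium, OF5 had 6 counts of Cd79a, 2.07 normalized counts or 1.36 on the log2 scale, against 0 to 0.0828 in the other 4.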

How the results depend on the processing

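The number of members called lower in epithelium was 4, 9 without a filter on counts, 6 with the 10 genes of most counts left out, and 4 to 7 with each mouse left out (7 without O1, 5 without O2). In the 5 mice with both layers it was 4 with mouse as a block and 4 without. Over all genes and in either direction, 9441 of 16791 were called in the main fit and 14026 of 49574 without a filter. With the 10 genes left out 9585 of 17710 were called, without O1 9113 of 16994 and without O2 8715 of 17100. By age in epithelium no member was called, and 1 without a filter, where 36 of 46496 genes were called. By age in stroma and in the interaction, none of the alternatives run, the blocks included, called a member.

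Directions by age in stroma depended on single mice for 8 of the 9 members. Igha stayed below 0, from -2.51 to -1.08, and no member was called with any mouse left out. The Log2FC with each mouse left out ran from -1.56 (without O3) to 2.39 for Ighm, -1.70 (without O3) to 2.61 for Ighg2b, -1.59 (without O3) to 2.50 for Igkc, -2.12 (without O3) to 1.78 for Jchain, -0.52 (without O3) to 2.88 for Cd79a, -0.070 (without O3) to 1.87 for Cd79b, -0.96 (without O3; -0.32 without Y1) to 0.98 for Ms4a1, and -2.21 to 0.24 (without O1; 0.12 without O2) for Mzb1. Cd79b turned to -0.082 with the number in the mouse code as a block. Low counts limit Igha, Mzb1, Cd79a, Cd79b and Ms4a1 in epithelium, where the highest count was 13.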
